A study of Mus musculus with 16 samples.

Results

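The genes followed were 8 secreted matrix genes in mouse brain microvascular endothelial cells (mBMEC), namely the proteases Adamts1, Adamts4, Adamts5 and Adamts9, their substrate versican (Vcan), and the thrombospondins Thbs1, Thbs2 and Thbs3. They were chosen by name with earlier results of these data known, so the shares of members called are descriptions beside those of all genes. The expected counts of all their annotated transcripts were summed, giving 8 genes of 54193 in all. The filter on low counts passed 8 of 8. The mBMEC came from 8 to 10 weeks old mice with a floxed Pdcd10 gene (also called Ccm3) and CreERT2 driven by the endothelial Cdh5(PAC) promoter. WT cells had the floxed alleles without 4-hydroxytamoxifen (4-OHT), and KO cells had received 4-OHT in culture, so 4-OHT exposure and the genotype label cannot be told apart. All groups carried the transgene, were selected with puromycin and were used at passage 2, and each culture was grown from brains of several mice pooled together. There were 3 WT and 3 KO libraries without drug, 2 WT+P and 3 KO+P libraries with 10 µM propranolol for 24 h, and 2 WT+R and 3 KO+R libraries with 100 nM rapamycin for 24 h.

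The 4 proteases belong to the ADAMTS family, metalloproteinases with thrombospondin type 1 repeats that bind matrix and cleave versican and related chondroitin sulphate proteoglycans; ADAMTS1, ADAMTS4, ADAMTS5 and ADAMTS9 are all known versicanases. Versican, with hyaluronan, builds a hydrated matrix around vessels, and its cleavage is known from vascular remodelling and from cavernous malformations. Thrombospondin-1 and thrombospondin-2 are matricellular proteins that inhibit angiogenesis through endothelial receptors such as CD36 and CD47, while thrombospondin-3 belongs to the pentameric subgroup. Endothelial loss of a CCM gene is known to raise the transcription factors KLF2 and KLF4, and ADAMTS genes and Thbs1 have been placed downstream of them.

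The libraries held 18.83 to 26.2 M counts. Pdcd10, the deleted gene, lay between 7.83 and 16.7 CPM (counts scaled to library size with TMM factors) in the 9 KO, KO+P and KO+R libraries and between 27.7 and 60.8 CPM in all but 1 of the WT, WT+P and WT+R libraries. The exception was the library labelled WT replicate 1, at 11.5 CPM, which lies within the KO range; values without it are therefore given beside the fold changes of the members against WT. The 10 endothelial markers summed to between 6882 and 14395 CPM, and Cdh5 alone to between 2452 and 5186 CPM. Mural markers summed to 71.6 to 2490 CPM, mostly Tagln and Acta2, while 2 of the 10, the pericyte markers Kcnj8 and Abcc9, stayed under 1 CPM in every library. Other pericyte markers were above that level, with Pdgfrb at 1.23 to 6.59 CPM over all libraries, Cspg4 at up to 5.7 CPM and Notch3 at up to 4.44 CPM. Fibroblast markers summed to 5.12 to 204 CPM. Microglia and macrophage markers reached at most 1.65 CPM, astrocyte markers 7.54 CPM, oligodendrocyte markers 2.04 CPM and neuron markers 93.4 CPM, the last mostly Stmn2. In bulk RNA, fewer cells of a type and less RNA per cell cannot be told apart.

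The genes lie on 7 chromosomes of GRCm39. Adamts1 (ENSMUSG00000022893.16, chr16:85590579-85600009) and Adamts5 (ENSMUSG00000022894.8, chr16:85653061-85698716) are neighbours on the minus strand, 53051 bases apart. Adamts4 (ENSMUSG00000006403.15) is at chr1:171077986-171089841 on the plus strand, and Adamts9 (ENSMUSG00000030022.16) at chr6:92749680-92920520 on the minus strand. Vcan (ENSMUSG00000021614.18) is at chr13:89803431-89890814, minus strand. Thbs1 (ENSMUSG00000040152.10) is at chr2:117941974-117957616 on the plus strand, Thbs2 (ENSMUSG00000023885.11) at chr17:14885761-14914528 on the minus strand and Thbs3 (ENSMUSG00000028047.13) at chr3:89122461-89134144 on the plus strand. The libraries carry no strand. Exons of other genes cover 12.16% of the exonic bases of Adamts9, 11.13% of Thbs1 and 7.11% of Thbs3 (the neighbour Mtx1), so a part of those counts is uncertain.

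RefSeq promoter entries (build GRCm38.p6) matched 5 of the 8 genes. The 250 bases before the start of Adamts1 (chr16:85803114-85803363, minus strand) and of Adamts9 (chr6:92943535-92943784, minus strand) are shown because these genes had the highest correlation of any pair of members over the libraries (r = 0.94). Capitals mark CACCC, the core of sites bound by Krüppel-like factors, and TATAAA, the TATA box core; both were searched on both strands (GGGTG and TTTATA), without overlap between them.
Adamts1: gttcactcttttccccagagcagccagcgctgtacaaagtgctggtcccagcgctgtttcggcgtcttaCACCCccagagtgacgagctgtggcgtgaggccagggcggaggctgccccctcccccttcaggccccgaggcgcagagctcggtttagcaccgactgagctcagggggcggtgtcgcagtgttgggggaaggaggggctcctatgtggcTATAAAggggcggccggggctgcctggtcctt
Adamts9: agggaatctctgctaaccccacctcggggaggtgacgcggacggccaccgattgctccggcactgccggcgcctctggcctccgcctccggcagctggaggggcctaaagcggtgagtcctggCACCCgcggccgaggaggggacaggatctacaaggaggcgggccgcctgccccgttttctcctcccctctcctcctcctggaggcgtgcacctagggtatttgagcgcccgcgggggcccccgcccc
Each window holds CACCC 1 time, and 52% of 32851 RefSeq mouse promoter windows of the same length hold it at least once. TATAAA stands in the Adamts1 window and in 12.4% of all windows, and its letters are not in the Adamts9 window. GC content was 65.6% for Adamts1 and 71.2% for Adamts9, against a median of 52.4% over all windows. These matches describe the letters only.

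Per transcript length, Thbs1 was by far the most abundant of the 8 genes, with a mean over the 16 libraries of 890 TPM (transcript abundance scaled for length and library), place 188 of 27253 genes with any signal. Among the proteases Adamts1 came first with 53.6 TPM, followed by Adamts4 with 12.9 TPM, Adamts9 with 7.05 TPM and Adamts5 with 3.38 TPM. Thbs2 (1.8 TPM), Vcan (0.845 TPM) and Thbs3 (0.828 TPM) were low. Thbs3 rested on 7 to 34 counts per library, Vcan on 13 to 196 and Thbs2 on 4 to 578, whereas no library held fewer than 77 counts of an ADAMTS member or fewer than 30058 of Thbs1.

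Nearly all reads of 4 members came from a single annotated transcript, namely Adamts1-201 (99.97%), Adamts5-201 (100%), Thbs1-201 (100%) and Thbs2-201 (99.95%). Adamts9 reads were divided among Adamts9-205 (59.22%), the longer coding transcript Adamts9-201 (23.99%) and the retained-intron transcript Adamts9-203 (13.62%). For Vcan, whose splice forms differ in the exons that carry chondroitin sulphate chains, the transcript with the longest coding sequence (Vcan-203, 10062 coding bases) took 63.05% of the reads, Vcan-206 (7182 coding bases) 25.36%, Vcan-201 (1965 coding bases) 6.17% and Vcan-202 (4845 coding bases) 3.27%. The shares of all these genes are estimates of the quantifier over all libraries summed, and single libraries departed from them widely for Adamts4, Adamts9 and Vcan. Adamts9-201 took 5.89% in KO+P replicate 1 and 43.43% in WT+P replicate 2. In the library labelled WT replicate 1 all 30 counts of Vcan went to Vcan-203.

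**Figure D1:**
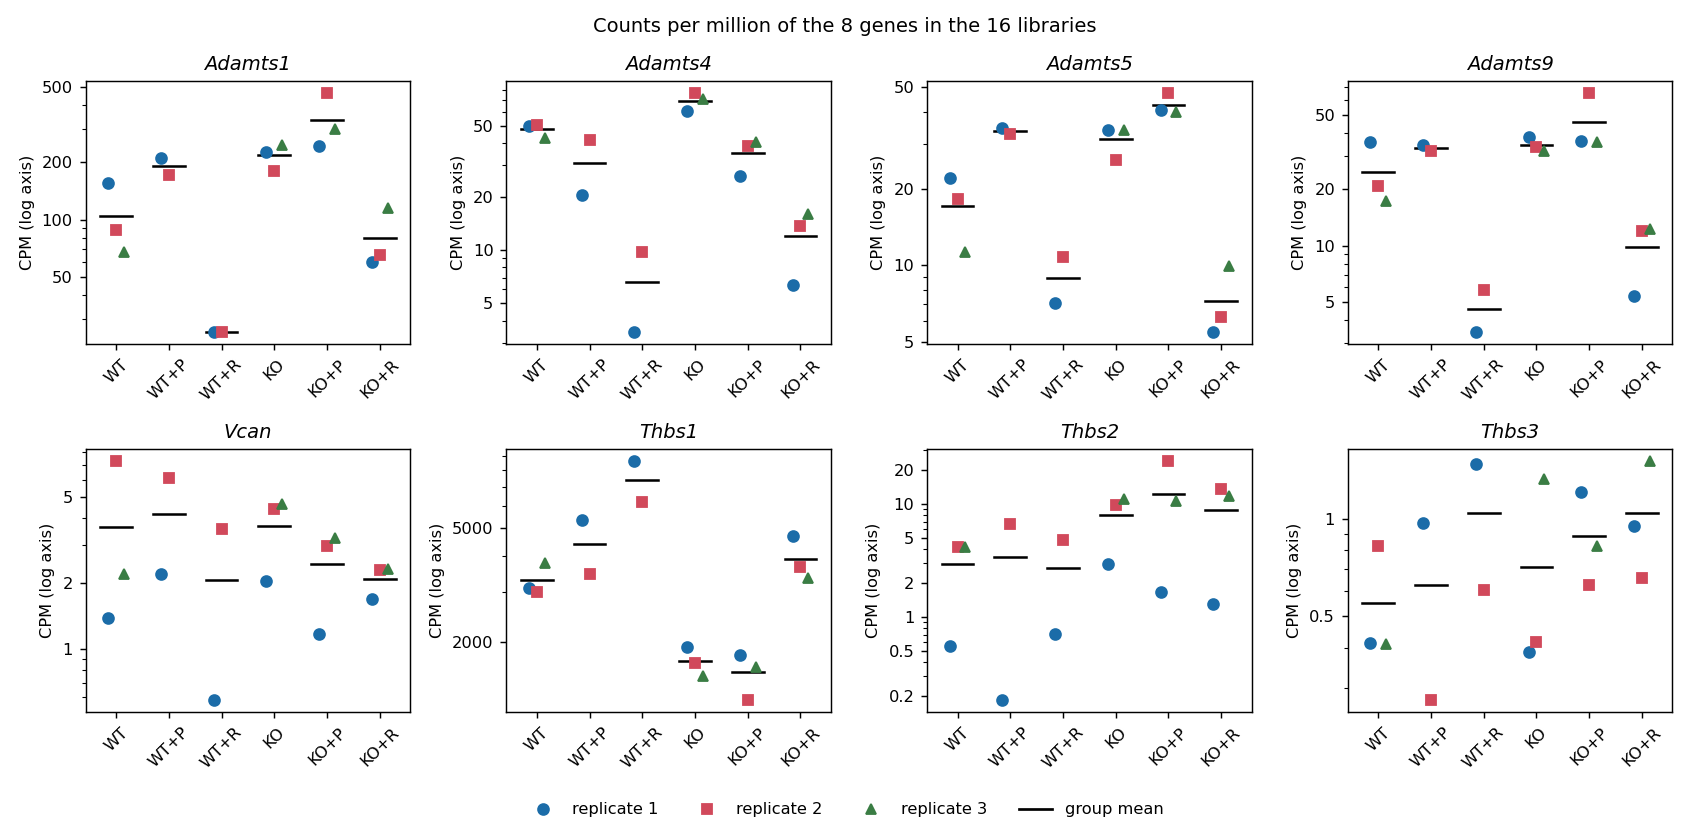
CPM (log axis, a separate scale for each gene) of the 8 genes by group; each point is a library, with shape and colour giving its replicate number, and the bar is the group mean. The 4 ADAMTS genes sit lowest in WT+R and KO+R, Thbs1 sits highest in WT+R and lowest in KO and KO+P, and Thbs2 is lowest in the replicate 1 library of every group.

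KO was first compared with WT to ask how these genes stood after deletion of Ccm3. The means of all 4 proteases were higher in KO and that of Thbs1 was lower, but none of the 8 genes was called by edgeR's quasi-likelihood test (Benjamini-Hochberg adjusted p under 0.05 and a fold change above 1.5) in the fit without a replicate block. Only 1 of 14838 genes was called in this comparison (0.00674%), and 3 of the 8 members had an unadjusted p under 0.05, as did 900 of the 14838 genes. Counts of members by other fits were 1 with the replicate number as a block, in which 0.182% of genes were called, 1 with DESeq2 (0.499% of genes called) and 4 with DESeq2 and the block (2.82% of genes called), which were Adamts1, Adamts5, Thbs1 and Thbs2. For 4 of the 8 genes, Adamts1, Adamts4, Adamts5 and Thbs1, the ranges of KO and WT were separate, beside 13.2% of all genes tested.

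Adamts1 stood at 156, 88.2 and 67.3 CPM in WT replicates 1 to 3 and at 227, 180 and 248 CPM in KO. Every KO library was thus above every WT library, and the nearest was the library labelled WT replicate 1. The log2 fold change was 1.07 ± 0.33 (SE), with a 95% confidence interval from 0.36 to 1.79 and an adjusted p of 0.508 (edgeR); without that library it was 1.48, and with the block as well 1.55 (adjusted p = 0.0643, edgeR). Adamts5, the aggrecan-cleaving protease encoded beside Adamts1, was measured at 21.9, 18.2 and 11.3 CPM in WT and at 34.1, 26 and 34 CPM in KO. Its log2 fold change was 0.87 ± 0.26 (adjusted p = 0.498, edgeR), again with no overlap between the groups; without the library labelled WT replicate 1 it was 1.08.

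Adamts4 had 50, 50.6 and 42.9 CPM in WT and 60.8, 76.5 and 70.7 CPM in KO (log2 fold change 0.54 ± 0.38, adjusted p = 0.996, edgeR, and 0.56 without the library labelled WT replicate 1). For Adamts9, a protease expressed by microvascular endothelium, the values were 35.8, 20.8 and 17.4 CPM in WT and 38.2, 33.8 and 31.8 CPM in KO, so that the library labelled WT replicate 1 lay inside the KO range and the other WT libraries below every KO library. Its log2 fold change was 0.49 ± 0.35 (adjusted p = 0.996, edgeR) and 0.85 without that library. None of the 4 differences reached the threshold in the edgeR fits with or without the block, and the log2 intervals reached from −0.28 to 1.35 for Adamts4 and from −0.26 to 1.24 for Adamts9.

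Thbs1 was the member called by edgeR with the block. It stood at 3095, 2987 and 3796 CPM in WT and at 1928, 1686 and 1516 CPM in KO, and it was lower in KO within each of the 3 replicate numbers (log2 ratios from −1.32 to −0.68). The log2 fold change was −0.95 ± 0.22 (95% confidence interval −1.43 to −0.46) with an adjusted p of 0.366 by edgeR without the block, of 0.0473 by edgeR with the block and of 0.00618 by DESeq2. Without the library labelled WT replicate 1 the value was −1 (adjusted p = 0.417, edgeR), and with the block as well −1.12 (adjusted p = 0.02, edgeR). Adamts1, Adamts5 and Thbs2 were called by DESeq2 with the block alone, with adjusted p-values of 0.0421, 0.0477 and 0.00417.

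The remaining members were not called by genotype in the edgeR fits. Vcan had 1.38, 7.32 and 2.21 CPM in WT and 2.05, 4.4 and 4.62 CPM in KO, with a log2 fold change of 0.02 and an interval from −1.5 to 1.54 (−0.66 to 1.05 with the block), and of −0.38 without the library labelled WT replicate 1. Thbs2 was measured at 0.552, 4.18 and 4.14 CPM in WT and at 2.98, 9.72 and 11.2 CPM in KO. The WT and KO ranges overlapped through KO replicate 1, while within each replicate number Thbs2 was higher in KO (log2 ratios 1.22 to 2.43). Its log2 fold change was 1.42 ± 1.22 without the block, with an interval from −1.22 to 4.06. With the block it was 1.74 ± 0.43, with an interval from 0.79 to 2.68 that excluded 0 (adjusted p = 0.101, edgeR). Without the library labelled WT replicate 1 the log2 fold changes were 0.93 without the block and 1.72 with it. Thbs3 ranged from 0.41 to 0.822 CPM in WT and from 0.387 to 1.33 CPM in KO.

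Klf2 and Klf4, the transcription factors that rise after loss of CCM genes, were compared in the same fit. The WT libraries averaged 209 ± 110 CPM of Klf2 (SD, n = 3) and the KO libraries 497 ± 71 CPM (log2 fold change 1.25 ± 0.41, adjusted p = 0.561, edgeR). For Klf4 the means were 67.5 ± 38.5 CPM and 187 ± 35.5 CPM (log2 fold change 1.47 ± 0.42, adjusted p = 0.486, edgeR). Neither was called by edgeR or by DESeq2 without the block, although the ranges of WT and KO were separate for both. DESeq2 with the block called both (adjusted p = 0.0293 for Klf2 and 0.00218 for Klf4). Without the library labelled WT replicate 1 the log2 fold changes were 1.46 for Klf2 and 1.48 for Klf4, neither called by edgeR. Nos3, the endothelial nitric oxide synthase and a KLF target, averaged 631 ± 230 CPM in WT and 1122 ± 225 CPM in KO (log2 fold change 0.83, and 0.79 without that library, neither called).

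Rapamycin, an inhibitor of mTORC1, was tested in KO cells next. All 4 proteases fell and Thbs1 rose in KO+R against KO, by 2.74-fold for Adamts1, 5.75-fold for Adamts4, 4.35-fold for Adamts5, 3.51-fold for Adamts9 and 2.28-fold for Thbs1. Thus 5 of the 8 members were called, where 1.51% of all genes tested were called; with the block the same 5 members were called and 4.98% of all genes. DESeq2 called the same 5 members too, where it called 3.24% of all genes without and 7.63% with the block. The KO and KO+R libraries did not overlap for these 5 genes, against 24.1% of all genes. The median log2 fold change of the 8 members was −1.13, beside −0.02 over all genes tested. The paper had named Adamts1 and Thbs1 among the genes recovered by rapamycin in its RNA-seq. As the members were chosen with earlier results known, these shares and medians are not an independent test of the group.

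In Adamts4, a protease of aggrecan and versican, the 3 KO libraries at 60.8, 76.5 and 70.7 CPM stood against 6.35, 13.7 and 16 CPM in KO+R. The lowest KO library was thus well above the highest KO+R library. The log2 fold change was −2.52 ± 0.4 (95% confidence interval −3.39 to −1.66, adjusted p = 0.0094, edgeR). Adamts5 went from 34.1, 26 and 34 CPM to 5.45, 6.27 and 9.89 CPM, a log2 fold change of −2.12 ± 0.27 (adjusted p = 0.00378, edgeR). Both calls held when any 1 of the 6 libraries was left out, with adjusted p-values from 0.0285 to 0.0444 for Adamts4 and from 0.00642 to 0.0281 for Adamts5.

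Adamts1, at 227, 180 and 248 CPM in KO, had 59.5, 64.7 and 115 CPM in KO+R. The decrease was present within each replicate number, with log2 ratios of −1.93, −1.48 and −1.11. Its log2 fold change of −1.45 ± 0.33 passed the threshold narrowly (adjusted p = 0.048, edgeR). Adamts9 fell from 38.2, 33.8 and 31.8 CPM to 5.35, 12 and 12.2 CPM (log2 fold change −1.81 ± 0.36, adjusted p = 0.0256, edgeR). Leaving out any of KO replicates 1 to 3 or KO+R replicates 1 and 2 ended the call of Adamts1, and leaving out any of the 6 libraries ended that of Adamts9; over the 6 fits the log2 fold changes lay between −1.8 and −1.25 for Adamts1 and between −1.98 and −1.49 for Adamts9. In these 6 fits 51 to 87 of all genes were called, against 224 with all libraries. The call of Adamts1 was also lost with DESeq2 size factors (adjusted p = 0.0516) and effective length offsets (0.0557), both in edgeR. Protein-coding transcripts alone (0.0561) and the 2 groups fitted alone (0.0527) lost it as well, also in edgeR.

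Thbs1 had 1928, 1686 and 1516 CPM in KO and 4689, 3672 and 3355 CPM in KO+R. Each KO+R library was above each KO library, and the increases within the 3 replicate numbers were close together (log2 ratios 1.28, 1.12 and 1.15). The log2 fold change was 1.19 ± 0.22 (95% confidence interval 0.71 to 1.67, adjusted p = 0.0212, edgeR). It ranged from 1.07 to 1.3 when single libraries were left out, where the call stood only without KO+R replicate 3; the highest adjusted p was 0.0936 (edgeR).

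**Figure D2:**
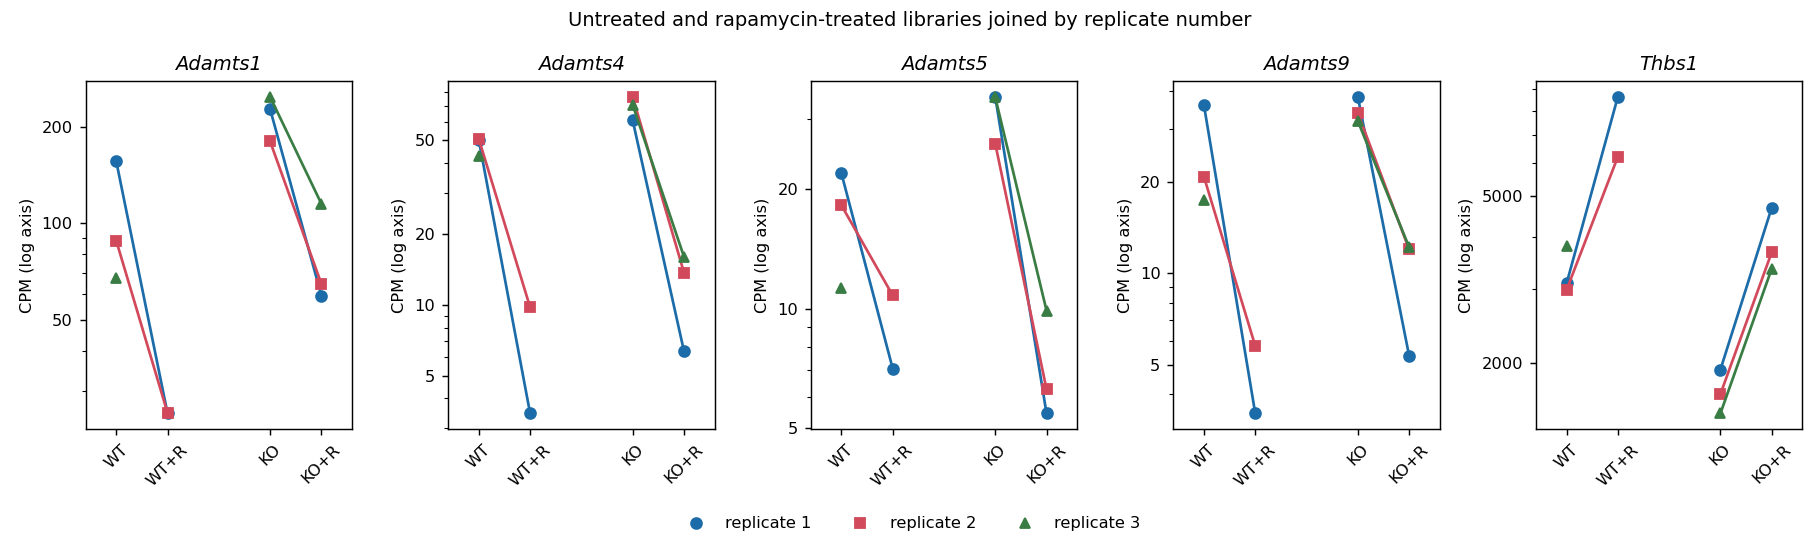
CPM (log axis, a separate scale for each gene) of the 4 proteases and Thbs1 in untreated and rapamycin-treated libraries; lines join libraries with the same replicate number, and WT replicate 3 has no treated partner. Every line falls for the proteases and rises for Thbs1, in WT as in KO cells.

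The other 3 genes were not called with rapamycin in KO cells. Vcan, the substrate, had 2.05, 4.4 and 4.62 CPM in KO and 1.69, 2.3 and 2.32 CPM in KO+R (log2 fold change −0.81, 95% confidence interval −2.35 to 0.74). It was lower in KO+R within each replicate number, while the ranges of the groups overlapped. Thbs2, with 1.32, 13.7 and 11.8 CPM in KO+R, had an interval from −2.4 to 2.73, and Thbs3 one from −0.79 to 1.9. With the block the intervals were −1.61 to 0.15 for Vcan, −1.1 to 0.67 for Thbs2 and −0.64 to 1.81 for Thbs3.

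Mural markers were read beside these genes. The 10 mural markers summed to 71.6 to 206 CPM in KO and to 271 to 453 CPM in KO+R, and the endothelial markers to 11487 to 12684 and 10998 to 12170 CPM. Of the 8 mural markers tested 0 were called by edgeR with or without the block and 1 had an unadjusted p under 0.05. That marker was Acta2, smooth muscle actin, at a log2 fold change of 1.6 ± 0.56 (adjusted p = 0.231, edgeR), which DESeq2 called (adjusted p = 0.0499), while Tagln was at 1.26 ± 0.88 (adjusted p = 0.637, edgeR). With the block, DESeq2 called Acta2 as higher (1.72, adjusted p = 0.0316) and Notch3 as lower (−1.35, adjusted p = 0.044). The mural markers thus did not all move in the same direction. The part of the mural genes in these results was not tested. Klf2 averaged 492 ± 84 CPM and Klf4 188 ± 65.9 CPM in KO+R (SD, n = 3), with log2 fold changes against KO of −0.01 (95% confidence interval −0.88 to 0.85) and 0.01 (−0.89 to 0.9). Nos3 averaged 647 ± 211 CPM in KO+R, a log2 fold change of −0.8 ± 0.49 (adjusted p = 0.568, edgeR), which DESeq2 called with the block alone (adjusted p = 0.0476).

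The same drug was given to WT cells. Adamts1, Adamts4 and Adamts9 fell and Thbs1 rose in WT+R against WT, by 4.06-fold, 7.23-fold, 5.35-fold and 2.25-fold. These were 4 of the 8 members, where 1.4% of all genes were called, and the WT and WT+R libraries did not overlap for 5 members, against 28.6% of all genes. The median log2 fold change was −0.87 over the members and −0.01 over all genes.

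Adamts1 was at 25.5 and 25.6 CPM in the 2 WT+R libraries, below all 3 WT libraries (log2 fold change −2.02 ± 0.4, adjusted p = 0.0264, edgeR). Adamts4 was at 3.45 and 9.75 CPM (−2.85 ± 0.48, adjusted p = 0.0157, edgeR), and Adamts9 at 3.45 and 5.76 CPM (−2.42 ± 0.43, adjusted p = 0.0178, edgeR). All 3 proteases were lower in the treated library of both replicate numbers that had one. Without the library labelled WT replicate 1, Adamts4 (−2.82) and Adamts9 (−2.05) were called and Adamts1 (−1.61, adjusted p = 0.0685, edgeR) was not. Adamts5, with 7.07 and 10.8 CPM in WT+R, lay just under the lowest WT library at 11.3 CPM, and its log2 fold change of −0.94 ± 0.3 was not called by edgeR (adjusted p = 0.164; −0.72 without the library labelled WT replicate 1). DESeq2 called Adamts5 with the block (adjusted p = 0.0445) and thus 5 members, where it called 6.66% of all genes. Without the block it called the same 4 members as edgeR and 3.82% of all genes.

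Thbs1 was at 8622 and 6206 CPM in WT+R, the highest levels of the series, against 2987 to 3796 CPM in WT. Its log2 fold change was 1.17 ± 0.24 (adjusted p = 0.0309, edgeR), beside the 1.19 found in KO cells. Without the library labelled WT replicate 1 it was 1.12 and not called (adjusted p = 0.107, edgeR). The summed mural markers were 96.7 to 839 CPM in WT and 1464 to 2490 CPM in WT+R, and Acta2 rose (log2 fold change 2.74 ± 0.61, adjusted p = 0.0469, edgeR; 2.34, adjusted p = 0.112, without the library labelled WT replicate 1). Of the other mural markers tested, Tagln (log2 fold change 2.26), Myh11 (1.87), Des (0.48) and Pdgfrb (0.31) were higher. Rgs5 (−2.89), Notch3 (−1.17) and Cspg4 (−0.46) were lower, and edgeR without the block called none of these. The summed endothelial markers, like the mural ones, did not overlap, at 11110 to 14395 CPM in WT and 9866 to 10559 CPM in WT+R. Cdh5, the VE-cadherin gene, averaged 4317 CPM in WT and 2698 CPM in WT+R, Cldn5, a tight junction gene, 1402 and 708 CPM, and Emcn, encoding endomucin, 1099 and 1911 CPM; 0 endothelial markers were called by edgeR without the block, 3 had an unadjusted p under 0.05, and DESeq2 called Cdh5 and Emcn. The part of the mural and endothelial genes in these results was not tested. Vcan, Thbs2 and Thbs3 had intervals of −2.57 to 0.94, −3.07 to 2.84 and −0.58 to 2.4. With the block these were −1.84 to 0.18, −1.04 to 1.28 and −0.5 to 2.31. Their log2 fold changes were −0.81, −0.11 and 0.91, and −1.19, −0.6 and 0.74 without the library labelled WT replicate 1.

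These WT results rested on few libraries. Leaving out WT+R replicate 1 ended all 4 calls, WT+R replicate 2 left that of Adamts4 alone, and the library labelled WT replicate 1 left Adamts4 and Adamts9, with log2 fold changes over the 5 fits of −2.25 to −1.61 for Adamts1, −3.79 to −2.29 for Adamts4, −2.84 to −2.05 for Adamts9 and 0.92 to 1.39 for Thbs1. Leaving out WT replicate 2 or 3 ended the call of Thbs1, where 140 and 81 of all genes were called, against 207 with all libraries. In the blocked fit that left out the library labelled WT replicate 1, Adamts4 (−2.57), Adamts9 (−1.99) and Thbs1 (0.95) were called and Adamts1 (−1.47, adjusted p = 0.0626, edgeR) was not.

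Whether the response to rapamycin differed between the genotypes was tested with an interaction term. Of the 8 members 0 were called by edgeR, as for 0% of all genes. DESeq2 also called 0 members, where it called 1 of 27209 genes without the block and 18 of 25711 genes with it. In edgeR without the library labelled WT replicate 1, 0 members and 0 genes were called. Beside 113 of 14838 genes, 1 member had an unadjusted p under 0.05 by edgeR. That gene was Adamts5, the fall of which was larger in KO than the difference in WT by −1.18 ± 0.39 on the log2 scale (95% confidence interval −2.03 to −0.34, adjusted p = 1, edgeR). For Adamts1, Adamts4, Adamts9 and Thbs1 the interaction terms lay between 0.02 and 0.61. The intervals were −0.51 to 1.64 for Adamts1, −0.92 to 1.58 for Adamts4, −0.55 to 1.76 for Adamts9 and −0.69 to 0.73 for Thbs1.

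KO+R and WT were then compared, to place the treated KO cells beside untreated WT cells; these contrasts share their libraries with the preceding ones. Adamts4 and Adamts5 were lower in KO+R than in WT, by 3.97-fold and 2.37-fold. They were 2 of the 8 members called (2.51% of all genes called), with the block 4 members were called (6.91% of all genes), and DESeq2 called Adamts4, Adamts5 and Adamts9 (4.82% of all genes) and with the block 4 members (8.31% of all genes). The libraries of KO+R and WT did not overlap for 3 members, against 22.6% of all genes.

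Adamts4 gave a log2 fold change of −1.99 ± 0.39 (adjusted p = 0.0187, edgeR) and Adamts5 of −1.24 ± 0.27 (adjusted p = 0.0259, edgeR), and for both every KO+R library was below every WT library. Adamts9 was also below WT in every library, at 5.35 to 12.2 against 17.4 to 35.8 CPM; it was called with the block (−1.32 ± 0.35, adjusted p = 0.0368, edgeR) and not without it (adjusted p = 0.0692, edgeR). Thbs2 was higher in KO+R with the block (1.52 ± 0.43, adjusted p = 0.0442, edgeR), and without the block the value was 1.59 ± 1.23. Without the library labelled WT replicate 1, and without the block, the values were −1.95 for Adamts4, −1.02 for Adamts5, −0.95 for Adamts9 and 1.11 for Thbs2, of which that of Adamts4 was called. In the blocked fit that left out the library labelled WT replicate 1, only Adamts4 was called (−1.75, adjusted p = 0.00257, edgeR), and Adamts5 was at −0.98 (adjusted p = 0.0626, edgeR).

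For Adamts1 and Thbs1 the KO+R and WT ranges overlapped. For Adamts1 the KO+R libraries (59.5 to 115 CPM) lay across the WT range (67.3 to 156 CPM), with a log2 fold change of −0.38 and an interval from −1.09 to 0.33; without the library labelled WT replicate 1 it was 0.04. Thbs1 was at 3355 to 4689 CPM in KO+R and 2987 to 3796 CPM in WT, a log2 fold change of 0.25 with an interval from −0.23 to 0.72 (0.21 without that library). Leaving out KO+R replicate 1 or 2 ended both the Adamts4 and the Adamts5 call, leaving out WT replicate 3 that of Adamts4, and leaving out WT replicate 2 or the library labelled WT replicate 1 that of Adamts5; over the 6 fits the log2 fold changes ranged from −2.24 to −1.67 and from −1.53 to −1.02.

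Propranolol, a non-selective beta blocker, was compared with untreated cells of the same genotype. None of the 8 members was called by edgeR, with or without the block, in KO+P against KO or in WT+P against WT, where 0.00674% and 0.00674% of all genes were called without the block and 0.142% and 0.0809% with it. At an unadjusted p under 0.05 the count was 1 in KO cells (Adamts4) and 2 in WT cells (Adamts1 and Adamts5). Over all 14838 genes it was 1870 in KO cells and 1464 in WT cells. DESeq2 called 0 members in both, where it called 1.19% of all genes in KO cells and 0.882% in WT cells. DESeq2 with the block called Adamts4 in KO cells (adjusted p = 0.00807), where it called 6.77% of all genes. In WT cells it called 0 members with the block and 1.15% of all genes. Groups did not overlap for 2 members in KO cells, against 18.7% of all genes, and for 3 in WT cells, against 21.2% of all genes.

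Adamts4 was the protease with lower values under propranolol. It had 26.2, 38.6 and 40.7 CPM in KO+P, below the 60.8 to 76.5 CPM of KO (log2 fold change −0.98 ± 0.38, 95% confidence interval −1.8 to −0.16, adjusted p = 0.353, edgeR). In WT+P it had 20.3 and 41.4 CPM, also below all WT libraries (−0.63 ± 0.43, and −0.6 without the library labelled WT replicate 1). The difference was seen within all 3 replicate numbers in KO cells and within both in WT cells.

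The other proteases had higher means. Adamts1 was at 243, 465 and 301 CPM in KO+P (log2 fold change 0.62, interval −0.08 to 1.33) and at 212 and 172 CPM in WT+P (0.89, interval 0.11 to 1.67). Adamts5 was at 40.7, 47.5 and 40.1 CPM in KO+P, above the KO libraries (0.45 ± 0.26), and at 34.7 and 32.9 CPM in WT+P, above the WT libraries (0.98 ± 0.28, adjusted p = 0.348, edgeR). Without the library labelled WT replicate 1 the WT+P values were 1.3 for Adamts1 and 1.19 for Adamts5, neither called. Adamts9 overlapped with the untreated libraries in both genotypes. Klf4 was higher without overlap in both, by 1.05 ± 0.42 in KO+P and 1.14 ± 0.46 in WT+P (log2, adjusted p = 0.354 and 0.475, edgeR). Without the library labelled WT replicate 1 the WT+P value was 1.15. DESeq2 with the block called Klf4 in KO+P alone (adjusted p = 0.0405). Klf2 (0.12 and 0.18) and Nos3 (−0.38 and −0.27) overlapped with the untreated libraries and were not called. The summed endothelial markers were lower under propranolol without overlap in both genotypes, at 7375 to 10947 CPM in KO+P against 11487 to 12684 CPM in KO and at 6882 to 10664 CPM in WT+P against 11110 to 14395 CPM in WT. Of the 10 markers 0 were called by edgeR with or without the block. An unadjusted p under 0.05 was found for 3 in KO cells (Cdh5, Kdr and Tie1, all lower) and for 4 in WT cells. DESeq2 with the block called Kdr, Tek and Tie1 lower in KO+P than in KO (adjusted p = 0.0477, 0.0448 and 0.0113), where it called 6.77% of all genes. The mural sums overlapped in both genotypes (115 to 434 CPM in KO+P, 407 to 1398 CPM in WT+P). The part of these markers in the levels of the proteases was not tested.

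Thbs1 had 1805, 1253 and 1637 CPM in KO+P, within or just under the KO range, with a log2 fold change of −0.13 and an interval from −0.6 to 0.35. In WT+P it had 5355 and 3466 CPM (0.42, interval −0.11 to 0.95; 0.37 without the library labelled WT replicate 1). Vcan, Thbs2 and Thbs3 were not called in either genotype by edgeR or DESeq2, with or without the block. Of the interaction terms of propranolol with genotype, 0 of the 8 were called by edgeR and by DESeq2, 0% of all genes were called, and 0 members had an unadjusted p under 0.05 by edgeR.

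**Figure D3:**
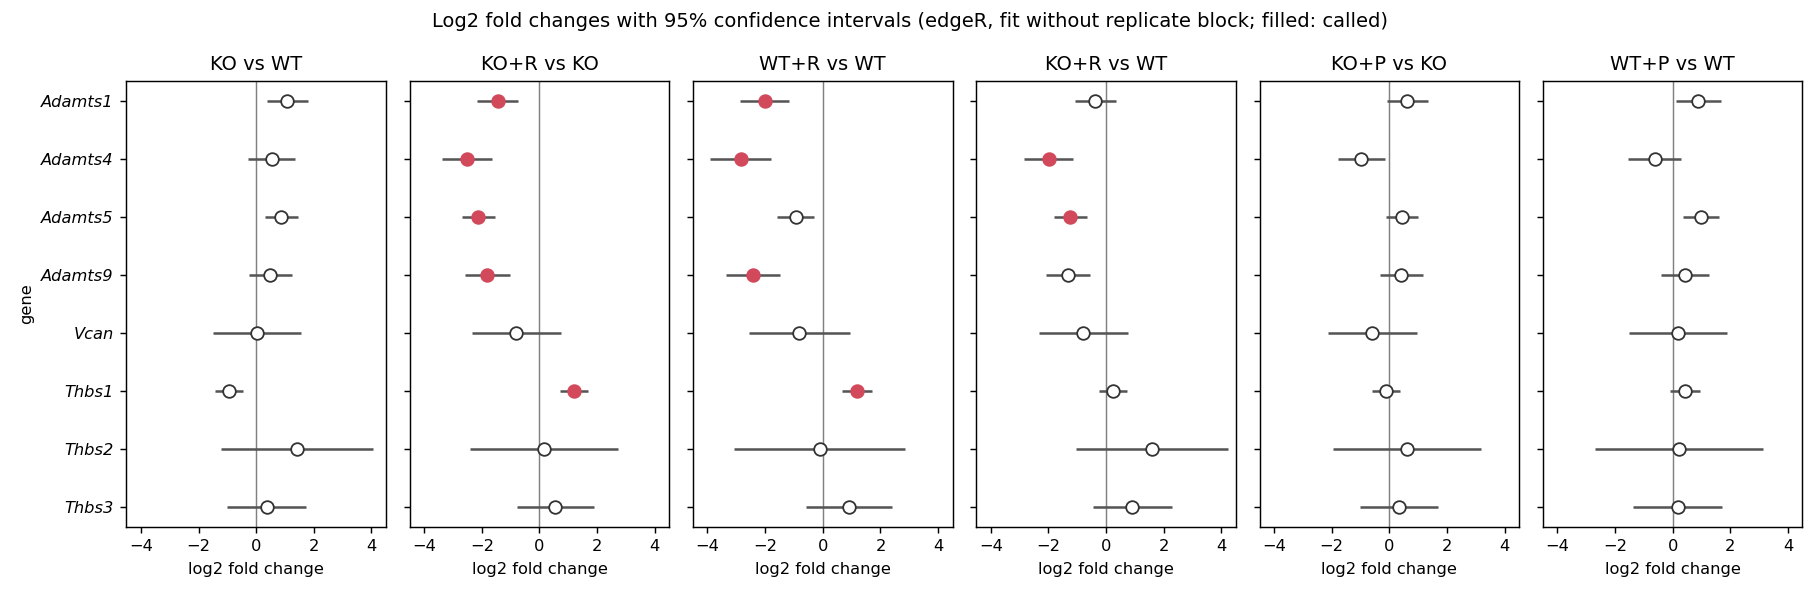
Log2 fold change of each gene (points) with its 95% confidence interval (bars) in the 6 comparisons, from the edgeR fit without the replicate block; filled points were called. Filled points stand in the rapamycin panels and in KO+R vs WT, and the intervals of Vcan, Thbs2 and Thbs3 cross 0 in every panel.

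Ordered by group mean, the proteases ran alike but not identically. Adamts1 was lowest in WT+R (25.6 CPM), then in KO+R (79.7), WT (67.3 to 156 in its libraries), WT+P (192), KO (218) and KO+P (336 CPM). Neighbouring groups overlapped except between WT+R and KO+R and between WT and WT+P. Adamts9 followed the same order, from 4.6 CPM in WT+R to 45.7 CPM in KO+P, with a gap only between KO+R and WT. Adamts4 instead was highest in KO (69.3 CPM), followed by WT (47.8 CPM) and both propranolol groups (35.2 and 30.9 CPM), and each of the 4 proteases was lowest in the 2 rapamycin groups.

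For Thbs1 the order from the bottom was KO+P (1565 CPM), KO (1710), WT (3293), KO+R (3905), WT+P (4410) and WT+R (7414 CPM), with gaps between KO and WT and between WT+P and WT+R. Vcan and Thbs3 had no gap between any neighbouring groups. Across the 16 libraries the log2 CPM of Thbs1 correlated negatively with Adamts1 (r = −0.85), Adamts9 (−0.81), Adamts4 (−0.78) and Adamts5 (−0.72), while the proteases correlated with each other at 0.73 to 0.94. These coefficients are descriptions over libraries that share cultures and treatments.

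Thbs2 and Vcan varied with the replicate number. Thbs2 stayed between 0.185 and 2.98 CPM in the 6 libraries numbered 1 and between 4.14 and 24.1 CPM in the other 10. For Vcan the ranges were 0.582 to 2.22 CPM and 2.21 to 7.32 CPM. In the same libraries numbered 1 the fibroblast markers summed to 5.12 to 21 CPM, and in the others to 17.4 to 204 CPM; their part in the level of Thbs2 and Vcan was not tested.

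The genes with the most similar pattern over the 16 libraries were sought among the 12410 tested genes that averaged 1 CPM or more. For Adamts1 they were Tob1 (r = 0.955) and Rab11fip5 (0.951), and for Adamts9 Rab11fip5 (0.974) and Fam131a (0.945). Layn (0.948) and Sec14l2 (0.945) were closest to Adamts4, and Svil (0.931) and Fam131a (0.911) to Adamts5. Thbs1 was most like Lrrfip1 (0.973) and Edn1 (0.973), the latter encoding the vasoconstrictor endothelin-1. Nkain1 (0.953) and Chpf2 (0.937) were nearest to Thbs2, Prim2 (0.907) and Il7 (0.905) to Vcan, and Scnn1a (0.835) and Dennd6b (0.819) to Thbs3.

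Other genes of the same matrix system were read from fixed lists. Of the 14838 genes tested, 900 to 2391 had an unadjusted p under 0.05 by edgeR without the block, depending on the comparison. Of 15 other ADAMTS proteases, 7 passed the filter and 0 were called by edgeR without the block in the 6 comparisons, where 4 of their 42 tests had an unadjusted p under 0.05. Their median log2 fold change in KO+R against KO was 0.12. Adamts10 (6.61 to 29.2 CPM over all libraries) and Adamts7 (7.4 to 30.1 CPM) were the highest of them. With the block edgeR made 3 calls in this list and DESeq2 made 5. Adamts12, at 4.53 ± 1.01 CPM in KO and 1.98 ± 0.458 CPM in KO+R, was called with the block (log2 fold change −1.19, adjusted p = 0.0078, edgeR) and by DESeq2, and not by edgeR without the block (adjusted p = 0.146). With the block it was also lower in WT+R than in WT (−0.97, adjusted p = 0.0471, edgeR). Adamts6 was higher in WT+R than in WT with the block (1.5, adjusted p = 0.0202, edgeR), with group ranges that overlapped. Adamts7 stood at 21.1 to 30.1 CPM in WT+R, above the 7.78 to 13.5 CPM of WT (log2 fold change 1.16 ± 0.37, adjusted p = 0.171, edgeR). Among 5 tested of 7 ADAMTS-like proteins 0 were called by edgeR without the block, 4 of 30 tests had an unadjusted p under 0.05, and DESeq2 made 2 calls (6 with the block); Adamtsl5 and Adamtsl4 had the highest levels.

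All 4 TIMPs, inhibitors of metalloproteinases of which TIMP3 blocks ADAMTS enzymes, were tested and 0 were called by edgeR, with or without the block, or by DESeq2 (1 of 24 tests had an unadjusted p under 0.05 by edgeR). DESeq2 with the block called Timp2, higher in KO+R than in WT (adjusted p = 0.0245). Timp2 averaged 1783 ± 794 CPM in WT, 3496 ± 1242 CPM in KO and 3842 ± 1179 CPM in KO+R, and Timp3 177 ± 55.7, 404 ± 145 and 438 ± 197 CPM. The spread between libraries of a group was large for both, with an interval for KO against WT from −0.36 to 2.3 for Timp2 and from −0.11 to 2.5 for Timp3. Without the library labelled WT replicate 1 these log2 fold changes went from 0.97 to 0.85 and from 1.19 to 1.25. Of 16 other hyalectans and proteoglycan partners 9 were tested and 0 were called by edgeR without the block (3 of 54 tests had an unadjusted p under 0.05, and DESeq2 made 1 call, 5 with the block); the highest were Tnc, encoding tenascin-C (176 to 702 CPM), and the hyaluronan receptor gene Cd44 (8.97 to 90.6 CPM).

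In chondroitin sulphate synthesis, 16 of 17 genes were tested, 20 of 96 tests had an unadjusted p under 0.05, and Xylt1, the xylosyltransferase that starts the chains, was the one called by edgeR without the block. It averaged 2.74 ± 0.338 CPM in KO and 0.847 ± 0.319 CPM in KO+R (log2 fold change −1.7 ± 0.37, adjusted p = 0.0381, edgeR) and was also below WT in KO+R (−1.75, adjusted p = 0.0245, edgeR; −1.73, adjusted p = 0.0636, without the library labelled WT replicate 1). With the block edgeR made 6 calls in this list, and DESeq2 made 6 without and 12 with it. Chst15, a chondroitin sulphate sulphotransferase, was higher with rapamycin in both genotypes with the block (1.27, adjusted p = 0.0459, in KO cells and 1.71, adjusted p = 0.0227, in WT cells, edgeR). Chst7 was lower in KO+R than in WT with the block (−1.65, adjusted p = 0.0136, edgeR). DESeq2 called Csgalnact1 lower in WT+R (−1.27) and in KO+R (−0.94) than in WT. Without the library labelled WT replicate 1 and without the block, edgeR gave −1.39 for Chst7. For Csgalnact1 it gave −1.01 in WT+R and −0.69 in KO+R, and neither gene was called. The median of the list in KO+R against KO was −0.04. Among 13 tested of 14 thrombospondin receptors and partners, 15 of 78 tests had an unadjusted p under 0.05, and 0 genes were called in KO+R against KO by edgeR or by DESeq2 without the block (3 with an unadjusted p under 0.05 by edgeR). Scarf1, a scavenger receptor, was the one called by edgeR without the block, lower in KO+R than in WT (−0.64 ± 0.12, adjusted p = 0.0135; −0.58, adjusted p = 0.0519, without the library labelled WT replicate 1). DESeq2 also called Itgb3, an integrin subunit, as higher in KO+R and WT+R than in WT (adjusted p = 0.0252 and 0.0106). Itgb3 averaged 114 CPM in WT, 179 CPM in KO+R and 203 CPM in WT+R. The proteoglycan Sdc4 was called by DESeq2 as lower in KO+R than in WT (−2.13, adjusted p = 0.0135). Without the library labelled WT replicate 1, edgeR gave −1.51 for Sdc4 and 0.56 (KO+R) and 0.73 (WT+R) for Itgb3. None of these was called by edgeR without the block, with or without that library. The integrin subunits Itgb1 and Itga3 were the highest of that list. Of the other thrombospondins, Comp was tested and not called, at 0.523 CPM at most, and Thbs4 did not pass the filter.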

How the data were processed

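Poly(A) RNA of mBMEC was sequenced as 16 unstranded paired-end libraries. For each library the authors deposited Salmon output (Salmon 1.5.2, Trim Galore 0.6.7 and build GRCm39 per the submitters' processing notes; the transcript index is not given in the sources used here), which lists 140789 transcripts, each with its effective length, its TPM and an expected count. The expected counts deposited by the authors are not normalized between libraries. The TPM values deposited by the authors are scaled by effective length and library and were used here only for levels between genes. The published methods describe alignment and counting by other tools, so those counts were not used here. The columns with values of samples outside the series numbered 0.

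Expected counts were summed over the transcripts of each gene in the GENCODE annotation of GRCm39 (99.12% of transcripts matched, and 0.39 to 0.57% of counts had no gene) and rounded. edgeR 4.0.16 in R 4.3.3 fitted all 6 groups in a single quasi-likelihood model (TMM factors 0.934 to 1.041, filterByExpr, 14838 genes, 10 residual degrees of freedom, no block), and p-values were adjusted by Benjamini-Hochberg over all of them. A gene was called at an adjusted p under 0.05 and a fold change above 1.5, an interaction at the adjusted p alone. Log2 CPM used a prior count of 2, and means are given ± SD unless SE is stated. Named were the 8 members, Pdcd10, Klf2, Klf4, Nos3 and the 2 genes most like each member. Of the lists, called genes were named, or otherwise up to 3 with the highest mean CPM. Adamts6, Adamts12, Chst7, Chst15, Csgalnact1, Itgb3, Sdc4, Kdr, Tek, Tie1, Emcn, Cspg4, Notch3, Rgs5, Des, Myh11, Kcnj8, Abcc9, Stmn2 and Thbs4 were named after their values were seen. The members and lists were chosen with earlier results of these data known.

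Libraries with the same replicate number deviated from their group means together, with a median correlation of 0.52 over 36 pairs (range 0.03 to 0.69). The median was −0.23 over 70 pairs with different numbers. Deviations from a group mean cancel within the group, so this negative value follows in part from the positive one and is not separate evidence. Within each comparison of 3 pairs every correlation was over 0.1 (lowest 0.15), so the numbers were taken as pairing the libraries; the pairing comes from the values, not from the labels. The block left 8 residual degrees of freedom and lowered the biological coefficient of variation from 32.3% to 19%. Alternatives were DESeq2 1.42.0, with and without the block, DESeq2 size factors, no filter, effective length offsets, protein-coding transcripts alone, the compared groups alone and each library left out; the block without the library labelled WT replicate 1 was added after the data were seen. With 2 or 3 libraries a group, p-values measure the spread between these cultures.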

Additional observations from a re-analysis of the deposited data

How the results depend on the processing

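The fall of Adamts4 and Adamts5 in KO+R against KO was called under every alternative run for that comparison. The number of members called elsewhere depended on the fit; the cause was not tested. In KO vs WT it was 0, but 1 with edgeR and the replicate block, 1 with DESeq2, 4 with DESeq2 and the block, and 1 with the block without the library labelled WT replicate 1. In KO+P vs KO it was 0, and 1 with DESeq2 and the block. In WT+R vs WT it was 4, but 5 with DESeq2 and the block, which added Adamts5. With those groups fitted alone it was 0, where 8 of 13892 genes were called. In KO+R vs WT it was 2, but 3 with DESeq2, 4 with the block in edgeR, 4 with it in DESeq2, 1 with the 2 groups alone and 1 with the block without the library labelled WT replicate 1. Leaving out single libraries gave 2 to 4 members in KO+R vs KO, where 51 to 87 of all genes were called, against 224 with all libraries. In KO+R vs WT it gave 0 to 2 members, beside 118 to 302 genes against 373. Leaving out a WT library gave 2 to 3 members in WT+R vs WT, beside 81 to 140 genes against 207. Where leaving out a library left 1 library in WT+R or WT+P, the remaining one was assumed to vary like the other groups. In edgeR the pairing by replicate number changed no call of a member other than Thbs1 in KO vs WT and Adamts9 and Thbs2 in KO+R vs WT, but it raised the number of genes called in KO+R vs KO from 224 to 739 and in KO+R vs WT from 373 to 1026.

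Directions turned for values near 0 or with few counts. The Adamts1 log2 fold change in KO+R vs WT ranged from −0.73 to 0.04 without single libraries and was 0.08 with the block without the library labelled WT replicate 1. The rapamycin interaction ranged from −0.22 to 1.28 for Adamts4 (−0.04 with the block without that library) and from −0.18 to 0.29 for Thbs1, and Thbs1 in KO+P vs KO from −0.24 to 0.01. For Vcan the ranges were −0.38 to 1.03 in KO vs WT, −2.63 to 0.21 in WT+R vs WT, −0.71 to 1.21 in WT+P vs WT and −1.17 to 0.23 in KO+R vs WT. Thbs2 ranged from −0.24 to 0.70 in KO+R vs KO (−0.21 with the block, −0.25 with it in DESeq2), from −0.37 to 1.13 in KO+P vs KO, from −2.05 to 0.68 in WT+R vs WT (0.12 with the block, 0.15 with it in DESeq2, 0.12 with it without the library labelled WT replicate 1) and from −3.96 to 1.16 in WT+P vs WT (−0.06 with the block in DESeq2). Thbs3 ranged from −0.45 to 0.77 in KO vs WT (−0.13 with the block without that library) and from −0.98 to 0.81 in WT+P vs WT (−0.26 with effective length offsets, −0.21 with the block without that library). Of all 788 values of single genes recomputed, 40 changed sign, 45 lost and 15 gained a call. Depth limits Thbs3, Vcan and, in the libraries numbered 1, Thbs2.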
